A study of Caenorhabditis elegans with 9 samples.

Results

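The entries described here are 64 Caenorhabditis elegans piRNAs whose level in animals with an RNase-dead prg-1 was at least 2 times that in wild type, out of 15913 entries of the database piRNAdb and 5252 with any sense read. They were chosen on a pooled rate, the summed sense reads of a genotype over its summed reads mapped to the genome. An entry needed at least 40 sense reads in wild type and RNase-dead together and a ratio of pooled rates of at least 2. The 40-read limit left 274 entries to choose from after 7 entries were set aside by name, and the highest ratio among those 7 was 1.71, so naming them removed no entry that the limits would have kept. The 210 entries that passed the read limit and not the ratio are called the other entries below.

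The study compared small RNAs of whole adult hermaphrodites of 3 genotypes with 3 libraries each: wild type, the prg-1(Rnase-dead) mutant, and prg-1 without its PAZ domain (PAZ-deletion). All animals were kept at 25 °C and collected as adults 24 h past mid-L4, the middle of their last larval stage, in samples of 20 to 30 animals. The labels name no treatment, no transgene and no further allele, and do not say whether libraries of a genotype came from separate cultures, so the spread between libraries may be technical. Libraries held 1022428 to 3121968 genome-mapped reads and 1714 to 20802 sense piRNA reads. The tables measured small RNAs, and the prg-1 transcript itself was not analysed here. Whole animals were used, so a lower level of a piRNA per cell and fewer germ cells cannot be told apart.

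PRG-1 is the Piwi-clade Argonaute of C. elegans. It binds the short RNAs that worms use as piRNAs, each made from a small transcription unit of its own and trimmed at the 3′ end, and with them it scans germline transcripts. A recognised transcript becomes a template for secondary siRNAs, which other Argonautes carry. Nuclease activity lets an Argonaute cut a paired target, and the PAZ domain holds the 3′ end of the bound guide.

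As a set, the 64 entries stood higher in every RNase-dead library than in any wild-type library, and lower in every PAZ-deletion library than in any other. Their summed level was 494, 202 and 340 sense reads per 1000000 genome-mapped reads (RPM) in wild-type replicates 1, 2 and 3. It was 1066, 828 and 958 RPM in the RNase-dead replicates and 90.0, 130 and 146 RPM in the PAZ-deletion replicates. The wild-type mean was 345 ± 146 RPM, the RNase-dead mean 951 ± 119 RPM and the PAZ-deletion mean 122 ± 28.9 RPM (SD, n = 3). The RNase-dead excess over wild type follows from how the entries were chosen and is given as a description, with no test. PAZ-deletion libraries took no part in the choice. No p is given for either sum, since the entries were chosen with earlier results of these libraries known.

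**Figure D1:**
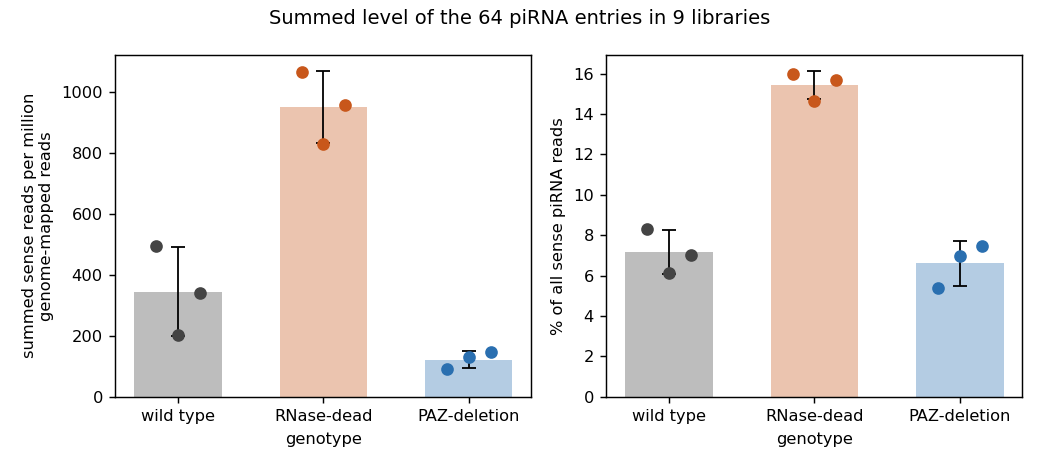
Summed level of the 64 entries per library, as sense reads per 1000000 genome-mapped reads (RPM) (left) and as percent of all sense piRNA reads (right). Points are libraries, bars are means and error bars are SD (n = 3); on the left the 3 RNase-dead libraries lie between 828 and 1066 RPM and the 3 PAZ-deletion libraries between 90.0 and 146 RPM, while on the right PAZ-deletion and wild type overlap.

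The picture differed when the same reads were taken as a share of the piRNA pool. Of all sense piRNA reads, the 64 entries took 7.17 ± 1.10% in wild type, 15.4 ± 0.702% in RNase-dead animals and 6.61 ± 1.10% in PAZ-deletion animals (SD, n = 3). Single libraries held 6.14 to 8.33% in wild type and 5.37 to 7.47% in PAZ-deletion, so these ranges overlapped. The other entries took 40.3 ± 0.827% in wild type, 37.9 ± 0.498% in RNase-dead animals and 29.5 ± 2.81% in PAZ-deletion animals (SD, n = 3), with every PAZ-deletion library below every wild-type library. The choice favoured entries that were low in these wild-type libraries, which raises any ratio of PAZ-deletion to wild type in the 64 relative to the other entries, and the size of this effect was not tested.

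Among the 64 entries, levels in wild type were modest and the ratios mostly close to the limit. Pooled rates ranged from 0.145 to 18.97 RPM in wild type (median 3.33) and from 3.83 to 52.2 RPM in RNase-dead (median 10.1). The median ratio was 2.60. It lay between 2 and 2.5 for 30 entries, between 2.5 and 3 for 13, between 3 and 4 for 14 and between 4 and 10 for 6, and it was 177 for cel-piR-13631. Among the 50 highest pooled rates of each genotype, 8 of the wild-type list belonged to the 64, as did 18 of the RNase-dead list and 7 of the PAZ-deletion list. The choice favours a high RNase-dead and a low wild-type rate, so nothing is read from these counts. Just inside the ratio limit were cel-piR-13560, at 2.003, and cel-piR-7026, at 2.006, and just outside it cel-piR-8714, at 1.96, and cel-piR-2195, at 1.96. Just inside the read limit were cel-piR-4588 with 40 reads and cel-piR-4329 with 41, and just outside it cel-piR-10262 and cel-piR-1760 with 39 reads each and a ratio of 2.32.

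In 52 of the 64 entries all 3 RNase-dead libraries lay above all 3 wild-type libraries, against 25 of the 210 other entries. The background over all 274 entries was 28.1%, and nothing is read from the difference, since the ratio limit selects for it. The 12 whose libraries overlapped included cel-piR-9898, cel-piR-13560, cel-piR-11442, cel-piR-4588, cel-piR-4329 and cel-piR-5684, which are among the entries described below.

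The entry cel-piR-13631 stood apart from the others. Wild-type replicates 1, 2 and 3 held 0, 0 and 1 of its sense reads, the RNase-dead replicates 83, 46 and 65, and the PAZ-deletion replicates 0, 0 and 0. As rates these were 0, 0 and 0.342 RPM against 26.6, 21.7 and 27.96 RPM in RNase-dead, and the ratio of pooled rates of 177 had an exact counting interval of 31.4 to 7027. It was thus near or at 0 in 6 libraries and at a narrow range of levels in the other 3. Without it, the summed level of the remaining entries was 345 ± 146 RPM in wild type and 925 ± 117 RPM in RNase-dead (SD, n = 3), so it carried little of the difference in the sum.

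The next ratios belonged to scarce entries. For cel-piR-10787 the wild-type libraries held 3, 0 and 3 reads, the RNase-dead libraries 21, 8 and 12 and the PAZ-deletion libraries 0, 1 and 0, a ratio of RNase-dead to wild type of 6.23. For cel-piR-9464 they held 6, 0 and 0, then 17, 10 and 12, then 1, 0 and 2 (ratio 5.93). Both had RNase-dead levels above every wild-type library, on few wild-type reads. For cel-piR-9898 the wild-type libraries held 6, 0 and 6 reads and the RNase-dead libraries 29, 4 and 36 (ratio 5.25), and at 1.88 RPM RNase-dead replicate 2 lay inside the wild-type range of 0 to 2.47 RPM. For cel-piR-3949 the rates were 1.65, 1.92 and 1.37 RPM in wild type and 8.97, 3.30 and 6.02 RPM in RNase-dead (ratio 4.06), without overlap. For cel-piR-12731 they were 4.54, 1.28 and 2.05 against 8.97, 10.8 and 14.2 RPM (ratio 4.03), again without overlap.

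The entries with the most reads are described next. Those above were named for the highest ratios, so lower ratios here follow from the naming. With 511 reads in wild type and RNase-dead together, cel-piR-4274 had the most, at 20.6, 10.9 and 16.8 RPM in wild type, 48.7, 52.7 and 56.3 RPM in RNase-dead and 0, 0.945 and 0.592 RPM in PAZ-deletion. The 3 genotypes did not overlap for it, in the order RNase-dead, wild type, PAZ-deletion. The same order without overlap was seen for cel-piR-2717, at 18.6, 15.4 and 17.8 RPM in wild type, 47.4, 32.5 and 37.4 RPM in RNase-dead and no read in PAZ-deletion. It was also seen for cel-piR-3230, at 26.4, 5.76 and 13.0, then 38.4, 30.1 and 50.3, then 0.978, 0 and 1.18 RPM. For cel-piR-3364 the means were 17.4 ± 8.44, 41.3 ± 5.63 and 2.22 ± 1.17 RPM, for cel-piR-1558 17.2 ± 7.76, 37.3 ± 7.93 and 6.48 ± 2.12 RPM, and for cel-piR-11568 15.04 ± 5.31, 32.1 ± 12.3 and 5.22 ± 1.27 RPM (wild type, RNase-dead and PAZ-deletion; SD, n = 3). For cel-piR-11442, RNase-dead replicate 3 at 20.2 RPM lay below wild-type replicate 1 at 22.7 RPM.

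Further abundant entries had a gap between their wild-type and RNase-dead libraries. The entry cel-piR-11525 was at 13.6, 5.12 and 7.19 RPM in wild type and 37.5, 41.0 and 28.4 RPM in RNase-dead (ratio 3.97). Named after their values were seen, cel-piR-7573 was at 9.93 ± 6.08 and 32.1 ± 4.65 RPM, cel-piR-5727 at 11.1 ± 2.36 and 31.9 ± 2.81 RPM and cel-piR-6985 at 11.5 ± 5.49 and 32.8 ± 8.81 RPM in wild type and RNase-dead (SD, n = 3). In all of these the lowest RNase-dead library lay above the highest wild-type library.

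**Figure D2:**
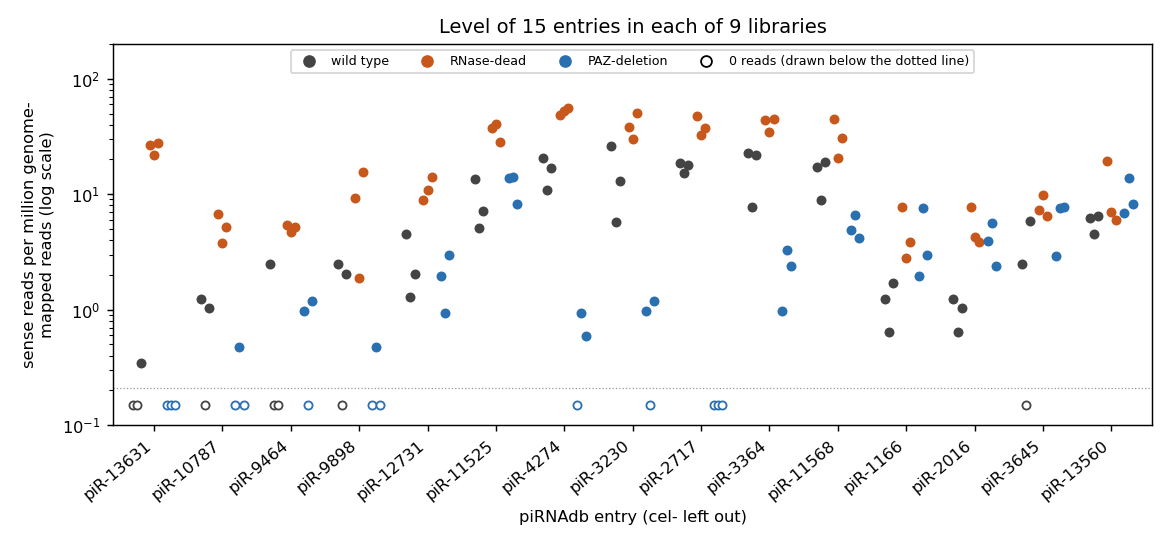
Level of 15 of the 64 entries in each of the 9 libraries, as sense reads per 1000000 genome-mapped reads (RPM) on a log scale; each point is a library and open points below the dotted line had 0 reads. From the left, cel-piR-13631 has a single wild-type read and no PAZ-deletion read, the abundant entries such as cel-piR-4274 fall in the order RNase-dead, wild type, PAZ-deletion, and the last 4 have PAZ-deletion pooled rates of 74.7 to 92.5% of RNase-dead.

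Which entries met the limits depended in part on single libraries and on the denominator of the rate. Wild-type replicate 2 was strictly the lowest wild-type library for 52 of the 64 entries (81.2%) and for 136 of the 210 other entries (64.8%), and it held no read of 9 of the 64 (14.1%) and of 5 of the 210 (2.38%). It also had the lowest rate of all sense piRNA reads in wild type, 3285 RPM against 5930 and 4840. The segment at the end of chromosome I contains 4 ribosomal RNA genes, and its part of the genome-mapped reads was 12.2, 14.3 and 3.83% in wild-type replicates 1, 2 and 3 and 1.64 to 2.62% in RNase-dead. With that segment left out of the denominator, 54 of the 64 entries still reached a ratio of 2. With all sense piRNA reads as the denominator, which takes out a change common to all piRNAs, 34 did. Either change lowered all ratios by a single factor, so no entry outside the 64 could be added. Without wild-type replicate 2 the limits gave 43 entries, 41 of them among the 64, and without RNase-dead replicate 1 they gave 40, of which 38 were among the 64. Across the 6 ways to leave out a single library, 27 of the 64 met the limits every time, cel-piR-13631, cel-piR-11525, cel-piR-12731, cel-piR-9898, cel-piR-4274, cel-piR-3230 and cel-piR-2717 among them. The limit of 40 reads was not lowered when a library was left out, so scarce entries could fail on reads and not on the ratio.

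To describe how values varied from library to library, the limits were also applied to 2 libraries of each genotype and the entries were read in the third. The limits themselves were set with all 6 libraries known, and 36 of 42, 39 of 41 and 40 of 51 entries chosen in this way were among the 64, so these values are a description and give no independent support. Chosen without replicates 1, 41 of 42 entries were higher in RNase-dead replicate 1 than in wild-type replicate 1, beside a background of 66.9% over the 154 entries considered, and 20 of the 42 were at least 2 times as high, beside 24.7%. Chosen without replicates 2, 40 of 41 were higher in the left-out RNase-dead library, beside 83.5% over 224 entries, and 34 were at least 2 times as high, beside 48.2%. Chosen without replicates 3, 46 of 51 were higher, beside 72.9% over 188 entries, and 30 were at least 2 times as high, beside 30.3%.

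The median ratio in the left-out libraries was 1.96, 3.81 and 2.37 for the chosen entries and 1.13, 1.75 and 1.21 for those considered and not chosen, in the order of the replicates left out. The high values for replicates 2 go with the low wild-type replicate 2, where entries not chosen were also higher in RNase-dead. A left-out value rests on a single library of each genotype, and no test was made of it.

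**Figure D3:**
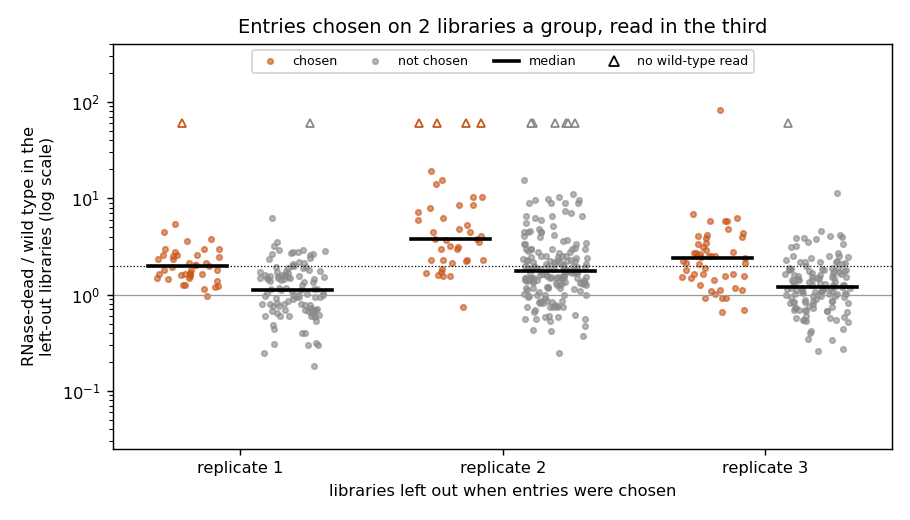
Ratio of the left-out RNase-dead library to the left-out wild-type library, on a log scale, for entries chosen (orange) and not chosen (grey) on the other 2 libraries of each genotype. Each point is an entry, black lines are medians, open triangles had no wild-type read, and the dotted line marks a ratio of 2. The medians are 1.96, 3.81 and 2.37 for the chosen entries and 1.13, 1.75 and 1.21 for those not chosen. The limits were set with all 6 libraries known, so the values are a description only.

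In PAZ-deletion animals most of the 64 entries were far below their RNase-dead level. All 64 passed the count filter of the fit over all piRNAs, which asked for at least 10 reads and a read in at least 3 libraries, and since each had at least 40 reads by choice this says nothing of their change. Against RNase-dead, 56 of the 64 were lower, 0 higher and 8 not called (edgeR's quasi-likelihood test, Benjamini-Hochberg FDR under 0.05 over 1067 entries). The background of entries called lower was 27.7%, and 66.2% among the 210 other entries. No unadjusted p under 0.05 came with a higher level (0 of the 64), and by DESeq2, with size factors from genome-mapped reads, 52 were lower and 0 higher. The median log2 fold change was -3.00 among the 64, -2.63 among the other entries and -1.69 over all tested, or -2.96, -2.39 and -1.10 when a group without reads was given 3 counts as a floor. In 59 of the 64 every PAZ-deletion library lay below every RNase-dead library, beside a background of 79.6% over the 274 entries. RNase-dead libraries were part of the choice, which favours a high level there and hence a large difference from PAZ-deletion. Among the 56, cel-piR-13631, cel-piR-10787, cel-piR-9464 and cel-piR-4588 passed the count filter only through their RNase-dead reads.

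Against wild type, 27 of the 64 entries were lower in PAZ-deletion, 0 higher and 37 not called (edgeR FDR under 0.05). The background was 19.2% lower and 1.31% higher over the 1067 entries tested, and 56.7% of the 210 other entries were called lower. An unadjusted p under 0.05 for a higher level was found for 2 of the 64, and by DESeq2, scaled to genome-mapped reads, 23 were lower and 0 higher. In 26 of the 64 every PAZ-deletion library lay below every wild-type library, beside a background of 54.4% over the 274 entries. The median log2 fold change was -1.67 among the 64, -2.38 among the other entries and -1.25 over all tested, or -1.57, -2.16 and -0.86 with the floor. Here the choice favours a low wild-type level, the opposite bias to that against RNase-dead, so the shares called in these comparisons, which also share the PAZ-deletion libraries, are given side by side only. The direction of calls depended on scaling. With sense piRNA counts summed as library sizes, 10 of the 64 were lower and 7 higher than in wild type, and 23 lower and 3 higher than in RNase-dead. With DESeq2 median-ratio factors 13 were lower and 5 higher than in wild type, and 30 lower and 0 higher than in RNase-dead. TMM factors in edgeR gave 20 lower and 2 higher than in wild type, and 45 lower and 0 higher than in RNase-dead.

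The calls are used below only to order the description in 3 patterns. The 27 entries called lower than wild type were also called lower than RNase-dead, which their choice all but fixes, since each stood at least 2 times higher in RNase-dead than in wild type and both comparisons share the PAZ-deletion libraries. A further 29 were called lower than RNase-dead and not called against wild type, and 8 were called against neither. Whether the patterns differ in their wild-type comparison was not tested, and the 29 were scarcer in wild type, with a median pooled rate of 2.46 RPM against 7.96 RPM for the 27.

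The 27 entries summed to 344, 154 and 244 RPM in wild type, 685, 551 and 640 RPM in RNase-dead and 27.4, 39.2 and 54.5 RPM in PAZ-deletion. Their PAZ-deletion level was 0 to 36.9% of wild type by pooled rate, with a median of 11.8%. For cel-piR-2717 there were 121 wild-type reads, 304 RNase-dead reads and no PAZ-deletion read. With 3 counts over the whole PAZ-deletion group as the floor, its level was 28.2-fold lower than in wild type and 64.6-fold lower than in RNase-dead. The fall of cel-piR-4274 was -4.61 ± 0.65 on the log2 scale against wild type (SE, edgeR FDR 7.66e-11), on 3 PAZ-deletion reads, and the ratio of wild type to PAZ-deletion was 27.0 with a counting interval of 9.02 to 133. That of cel-piR-3230 was -4.48 ± 0.66 (SE, edgeR FDR 6.16e-10), also on 3 PAZ-deletion reads, and that of cel-piR-3364 was -2.85 ± 0.51 (SE, edgeR FDR 8.86e-07).

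The smaller falls in this pattern were less secure. The log2 fold change against wild type was -2.28 for cel-piR-11442, -1.85 for cel-piR-7026, -1.52 for cel-piR-11568 and -1.39 for cel-piR-1558. The call of cel-piR-11568 was lost without wild-type replicate 3 or PAZ-deletion replicate 3, and that of cel-piR-1558 without wild-type replicate 1 or PAZ-deletion replicate 2, with TMM factors or without the count filter. Scaled to summed piRNA counts, all 4 lost their calls, at log2 fold changes of -0.92, -0.47, -0.16 and -0.02 in the same order, and with DESeq2 median-ratio factors all but cel-piR-11442 did. PAZ-deletion libraries held no read of cel-piR-659, with 13 wild-type reads, or of cel-piR-4588, with 11. With a floor of 3 counts they were 3.03-fold and 2.56-fold lower than wild type, which takes these few wild-type reads as exact. The call of cel-piR-659 was lost without PAZ-deletion replicate 2, and that of cel-piR-4588 without wild-type replicate 1 or any of the PAZ-deletion libraries, with TMM factors, with DESeq2 scaled to genome-mapped reads and without the count filter. Both were also lost when scaled to summed piRNA counts or with DESeq2 median-ratio factors. The entry cel-piR-4588 passed the count filter only through its RNase-dead reads, so that it was tested at all rests on the choice.

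The 29 entries called lower than RNase-dead and not called against wild type summed to 126, 37.8 and 71.9 RPM in wild type, 313, 233 and 274 RPM in RNase-dead and 42.1, 46.8 and 53.3 RPM in PAZ-deletion. Each PAZ-deletion sum thus lay above wild-type replicate 2 and below wild-type replicates 1 and 3. These entries were sorted by having no call against wild type, which favours levels near it, so nothing is read from this. The entry cel-piR-13631 belongs here because wild type and PAZ-deletion were both at or under the floor. With 3 counts as the floor, its PAZ-deletion level was 41.2-fold lower than in RNase-dead. This entry was chosen for its RNase-dead level and passed the count filter only through that group, so this fall follows from the choice and no FDR is given. The most abundant of them in PAZ-deletion was cel-piR-11525, at 13.7, 14.2 and 8.29 RPM, which overlapped its wild-type range of 5.12 to 13.6 RPM and lay below its RNase-dead range of 28.4 to 41.0 RPM. Its log2 fold change against RNase-dead was -1.56 ± 0.41 (SE). The choice for a high RNase-dead level favours such a fall, so no FDR is given. The entry was called lower in the edgeR fit. It was not called with TMM factors, with DESeq2 median-ratio factors or with library sizes from piRNA counts, where its log2 fold change was 0.17. For cel-piR-2918 the rates were 14.4, 2.56 and 8.21 RPM in wild type, 23.7, 16.0 and 21.5 RPM in RNase-dead and 6.85, 2.36 and 8.29 RPM in PAZ-deletion.

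Several calls against RNase-dead in this pattern rested on few reads. Since cel-piR-10787 and cel-piR-9464 passed the count filter only through their RNase-dead reads, their falls against that group follow from the choice. With 1 PAZ-deletion read each, cel-piR-9898 and cel-piR-10787 had ratios of RNase-dead to PAZ-deletion of 44.0 and 26.1, with counting intervals of 7.64 to 1762 and 4.44 to 1057. The call of cel-piR-9464 was lost without PAZ-deletion replicate 2, that of cel-piR-3949 without PAZ-deletion replicate 2 or RNase-dead replicate 1, that of cel-piR-3044 without any single RNase-dead or PAZ-deletion library, and that of cel-piR-4329 without any RNase-dead library or PAZ-deletion replicate 1 or 3. Scaled to summed piRNA counts or with DESeq2 median-ratio factors, cel-piR-9464, cel-piR-3949, cel-piR-3044, cel-piR-4329, cel-piR-10787, cel-piR-12731 and cel-piR-2918 were not called. With TMM factors or without the count filter cel-piR-3949, cel-piR-3044 and cel-piR-4329 were not called, and cel-piR-4329 was also lost with DESeq2 scaled to genome-mapped reads and without the end of chromosome I in the denominator.

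**Figure D4:**
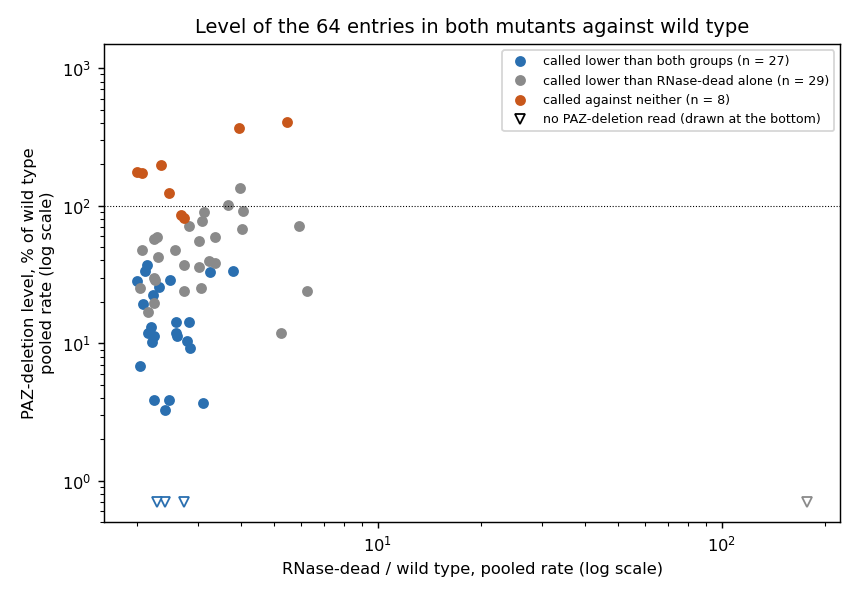
Pooled rate of RNase-dead over wild type (x axis, log scale) and of PAZ-deletion as percent of wild type (y axis, log scale) for the 64 entries, coloured by their edgeR calls for PAZ-deletion. Each point is an entry, triangles at the bottom had no PAZ-deletion read, and the dotted line marks the wild-type level; the 8 entries called against neither group lie at 81.8 to 409% of wild type.

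The 8 entries called in neither comparison had PAZ-deletion levels of 81.8 to 409% of wild type and 29.9 to 92.5% of RNase-dead by pooled rate. They were sorted by having no call, which favours such levels, and the 29 entries above spanned 0 to 134% of wild type. The 409% belonged to cel-piR-2016, on 7 wild-type reads. Together they summed to 24.7, 9.61 and 23.96 RPM in wild type, 67.6, 44.7 and 43.4 RPM in RNase-dead and 20.5, 43.5 and 38.5 RPM in PAZ-deletion. Their pooled rates in wild type were 1.01 to 5.94 RPM. In cel-piR-2016 the rates were 1.24, 0.640 and 1.03 RPM in wild type, 7.69, 4.24 and 3.87 RPM in RNase-dead and 3.91, 5.67 and 2.37 RPM in PAZ-deletion. In cel-piR-1166 they were 1.24, 0.640 and 1.71, then 7.69, 2.83 and 3.87, then 1.96, 7.56 and 2.96 RPM.

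In cel-piR-13560, the most abundant of the 8, they were 6.19, 4.48 and 6.50, then 19.5, 7.06 and 6.02, then 6.85, 13.7 and 8.29 RPM. All PAZ-deletion libraries lay above all wild-type libraries for these 3 entries, 3 of 64 beside 2 of the 210 other entries and 1.82% over the 274 entries. The choice favours a low wild-type level, which favours this order, so nothing is read from the difference. None of the 3 was called against wild type in the main edgeR fit. Their edgeR FDR was 0.0514 for cel-piR-2016, 0.0657 for cel-piR-1166 and 0.275 for cel-piR-13560. For cel-piR-13560 the RNase-dead mean rested on replicate 1, while at 6.02 RPM replicate 3 lay inside the wild-type range and at 7.06 RPM replicate 2 lay above it. In cel-piR-3645 wild type was at 2.47, 0 and 5.82 RPM, RNase-dead at 7.37, 9.89 and 6.45 RPM and PAZ-deletion at 2.93, 7.56 and 7.70 RPM. The other four, named after their values were seen, were cel-piR-9797, cel-piR-5684, cel-piR-6327 and cel-piR-5921, whose PAZ-deletion means were 3.20 ± 2.82, 3.95 ± 2.55, 1.62 ± 1.4998 and 1.59 ± 0.711 RPM (SD, n = 3).

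Antisense reads, which match the opposite strand of a piRNA and were not used to choose entries, were few. They were counted for 8 of the 64 entries (12.5%) and 34 of the 210 others (16.2%). The 64 had 18 antisense reads in wild type, 21 in RNase-dead animals and 14 in PAZ-deletion animals, which is 0.718, 0.287 and 2.28 per 100 sense reads, beside 0.296, 0.450 and 1.48 for the other entries and 10.8, 8.32 and 20.5 over all entries in the database. Of these 53 reads, cel-piR-3645 held 27, of which 7 came from wild-type, 11 from RNase-dead and 9 from PAZ-deletion libraries, and cel-piR-3044 held 11. The entries cel-piR-13560 and cel-piR-1166 had 4 and 3. The 8 entries called in neither PAZ-deletion comparison held 34 of the 53 antisense reads, in 3 of the 8.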

How the data were processed

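The deposited values used were raw counts of sense and antisense reads per piRNAdb entry (release 1.7.6) and raw counts per genome segment, per the file headers. The submitters' processing notes name cutadapt 3.7 and FastQC 0.12.0. Aligner, genome build and the handling of multiply mapped reads: not given in the sources used here; near-identical entries may therefore share reads. A mirVana kit was used for extraction, and the RNA was treated with acid pyrophosphatase, so siRNAs with a 5′ triphosphate enter the genome-mapped reads used as denominator, per the labels' protocols. The growth text names both hermaphrodites and males; the titles say hermaphrodite. Sequences and positions of the entries were not used here. The last segment of chromosome I was placed by segment length against Ensembl release 115 annotation of WBcel235.

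The entries and lists were chosen with earlier results of these data known. edgeR 4.0.16 (R 4.3.3; glmQLFit, glmQLFTest) tested sense counts of entries with at least 10 reads and a read in at least 3 libraries, all 9 libraries in 1 fit, library sizes set to genome-mapped reads, Benjamini-Hochberg FDR 0.05. It was tested on simulated data. The SE of a fold change is its size over the square root of F. Spread is largely pooled over entries, so a small FDR is no measure of an entry's own replicates. Counting intervals are exact binomial (95%). Folds at a floor of 3 counts (0.961 to 2.93 RPM per library) take the reads of the other group as exact. Both cover counting error only. Alternatives were other scalings, DESeq2 1.42.0, no filter, a replicate block and leaving out each library. Named entries were those with the highest ratio, most reads, highest PAZ-deletion rate, most antisense reads, no PAZ-deletion read, or next to a limit.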

Additional observations from a re-analysis of the deposited data

How the results depend on the processing

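The number of entries meeting the limits, 64, became 34 with sense piRNA reads as denominator and 32 with at least 100 summed reads, and 40 to 88 when single libraries were left out. As percent of wild type, the summed level was 35.3 in PAZ-deletion and 275 in RNase-dead. With sense piRNA reads as denominator these were 92.2 and 215, and with single libraries left out 29.2 to 45.0 and 228 to 351. Entries called in PAZ-deletion against wild type, 27, became 17 (7 higher, 10 lower) when scaled to summed piRNA counts, and 17 to 32 with single libraries left out, 17 of them without PAZ-deletion replicate 2. In the fits without wild-type replicate 3, PAZ-deletion replicate 1 or PAZ-deletion replicate 3, 1 of the calls was higher. Against RNase-dead the 56 became 26 when scaled to summed piRNA counts, 30 with DESeq2 median-ratio factors, and 47 to 58 with single libraries left out. These scalings shift every piRNA together, and the median log2 fold change over all entries tested went from -1.25 to -0.02 against wild type when scaled to summed piRNA counts, to -0.47 with median-ratio factors and to -0.93 with TMM factors. The log2 fold change of cel-piR-11525 against RNase-dead turned from -1.56 to 0.17 when scaled to summed piRNA counts.

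Same-numbered libraries were not shown to be paired. The correlations of their deviations from group means were -0.08 to 0.12, and a library correlated best with its own number in 9 of 18 comparisons. With the replicate number as a block, edgeR called 24 entries against wild type and 52 against RNase-dead, and cel-piR-4588 (FDR 0.0649 against wild type) and cel-piR-4329 (against RNase-dead) were among those not called. Depth limits the scarce entries, since 3 counts in a library stood for 0.961 to 2.93 RPM.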
